A study of Mus musculus with 10 samples.

Results

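The Kruppel-like factor genes described here are Klf2, Klf3, Klf4, Klf5, Klf6, Klf7, Klf9, Klf10, Klf13 and Klf15. They were chosen by symbol and not by value, and all 10 were found among the 55453 gene symbols of the count table, with between 65 and 7828 reads in each aorta. RNA was sequenced from the whole aorta of 5 young (14.5 weeks) and 5 old (92.5 weeks, by the sample labels) male C57BL/6 mice, bought from a supplier, fed standard chow and killed on the same occasion. Aortae of saline-perfused mice were cleaned of the surrounding fat, and each gave 1 total RNA sample and 1 stranded mRNA library, so that every replicate is a separate mouse. Neither group carried an engineered allele or received a treatment. The comparison asks which aortic transcripts differ between the ages, and within this family how the flow-responsive, the stress-responsive and the clock-controlled members compare.

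Kruppel-like factors are transcription factors that bind CACCC elements and GC-rich sites through zinc fingers at the carboxyl end, and differ in the domains that recruit coactivators or corepressors. In arteries Klf2 and Klf4 are best known as genes that laminar blood flow induces in endothelial cells through a kinase cascade and MEF2 factors, where they promote nitric oxide synthesis and restrain inflammation and clotting. Klf5, Klf6 and Klf10 respond to growth factors, injury and transforming growth factor, whereas Klf9 and Klf15 are induced by glucocorticoids and oscillate with the circadian clock.

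Between 19640401 and 22886153 reads per aorta were counted on genes. Of 28011 genes with a count, 14614 passed the low-count filter of edgeR, including all 10 members. Old aortae had 947 higher (6.48%) and 729 lower genes at a Benjamini-Hochberg adjusted p below 0.05 by the edgeR quasi-likelihood test, together 11.5% of those tested. Smooth muscle markers were abundant, as the tissue label implies, with a mean of 390587 ± 31099 normalized counts of Acta2 at the young age and 348817 ± 33917 at the old (SD, n = 5), where a normalized count is a read count divided by the library's size factor. All 12 endothelial markers were tested as well, and none of 5 mesothelial markers had enough counts for a test. Old replicate 2 had a mitochondrial share of 11% of its counts, against at most 6.51% in the other 9 aortae. Old replicate 3 had the lowest Klf2, Klf4, Klf6 and Klf7 and the highest Klf10 of all 10 aortae.

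Klf6 was the only member called between the ages, and it was lower in old aortae. No member was called higher, where 6.48% of all genes were. Across the family the log2 fold change (old over young) was negative for 7 members and positive for 3, with a median of -0.08 beside 0.003 over all genes tested. With 1 of 10 members called, the family's share stood close to the 11.5% of all genes that were called. At an unadjusted p below 0.05 in the same edgeR test stood 3 members, Klf4, Klf5 and Klf6, where 26.7% of all genes did. Klf6 was also the only member whose young and old values did not overlap, a pattern that 9.92% of all genes showed in either direction.

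**Figure D1:**
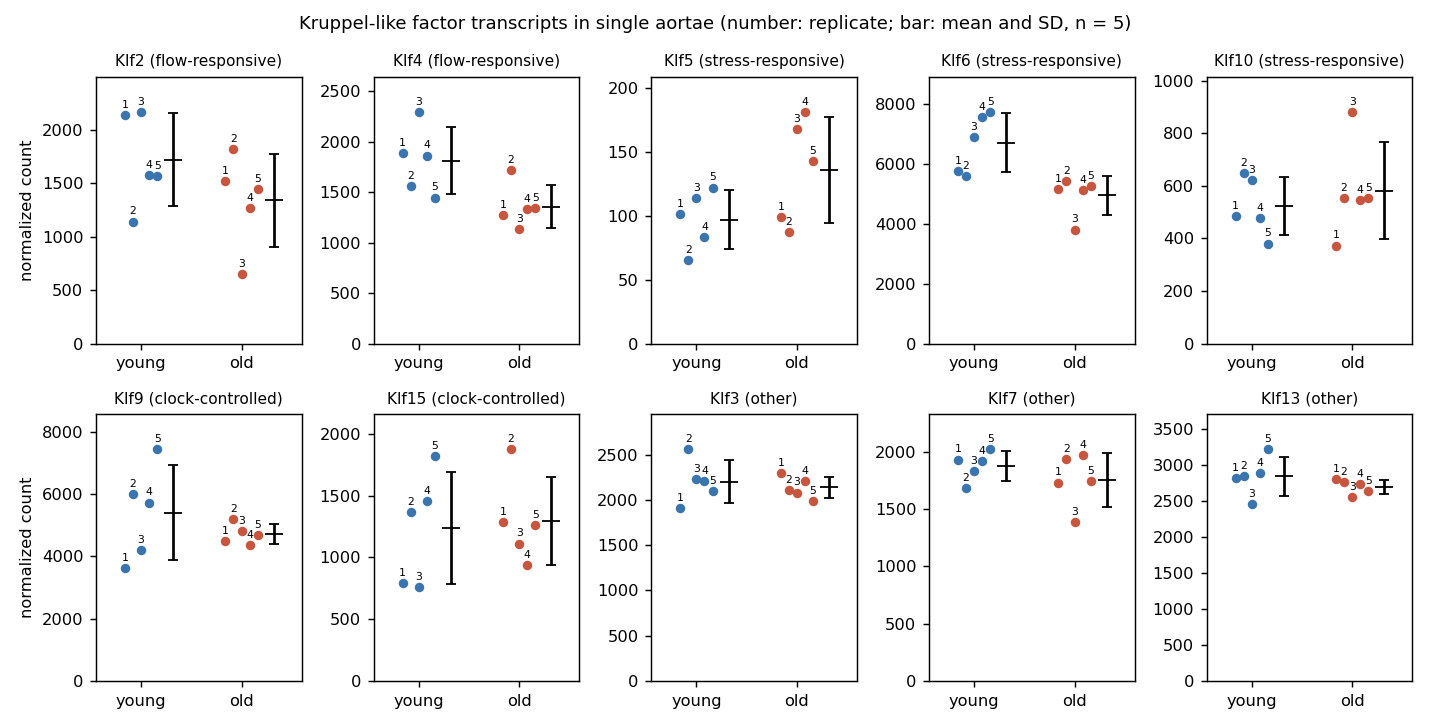
Normalized counts of the 10 Kruppel-like factor transcripts (vertical axes, each from 0) in young and old aortae, with 1 numbered point per mouse and a bar for the mean and SD of 5 mice. The old points of Klf6 lie between 3801 and 5405, all below the young points, whereas the groups overlap for the other 9 members.

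Per unit of transcript length, Klf6 was the most abundant member and Klf5 the least. Levels between genes were compared in RPKM, the reads scaled for library size (with TMM factors) and for the length of the merged exons. The mean RPKM over the 10 aortae was 61.3 ± 12.7 (SD, n = 10) for Klf6, 48.5 ± 10.4 for Klf9, 38.3 ± 11.4 for Klf2, 24.0 ± 5.39 for Klf4 and 21.0 ± 6.37 for Klf15. Below them came Klf13 with 17.0 ± 1.24, Klf7 with 10.3 ± 1.06, Klf3 with 8.92 ± 0.744, Klf10 with 6.10 ± 1.64 and Klf5 with 1.03 (0.580 to 1.61). Of neighbours in this order, only Klf13 and Klf7, and Klf10 and Klf5, had RPKM ranges that did not overlap. The order of Klf4 and Klf15 was not resolved, since Klf4 had the higher RPKM in 5 of 10 aortae. In young aortae Klf4 averaged 27.4 ± 5.08 and Klf15 20.5 ± 7.46 (SD, n = 5). In old aortae they averaged 20.6 ± 3.33 and 21.5 ± 5.91. Klf6 exceeded Klf9 in 9 of 10 aortae, the exception being old replicate 3, in which Klf6 was at its lowest.

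The flow-responsive members come first. Klf2 lies on chromosome 8 (GRCm38, 72319033 to 72321656, plus strand) and Klf4 on chromosome 4 (55527143 to 55532466, minus strand), and both are protein-coding. Their promoters are shown because MEF2 factors and E-box-binding clock proteins are among the regulators discussed with this family. The 300-base RefSeq windows (GRCm38.p6, 250 bases before and 50 after the start site, 5′ to 3′ along the gene) are chr8:72318812-72319111 on the plus strand for Klf2 and chr4:55532426-55532725 on the minus strand for Klf4. Capitals mark matches, sought on both strands. The E-box is CACGTG and reads the same on either strand. The cyclic AMP response element was sought as TGACGTCA. The TATA box was taken in the short form TATAAA. The CCAAT box was sought by the letters of its name and by their reverse complement. The CArG box, the MEF2 site and the palindromic glucocorticoid response element were sought in their usual forms.
Klf2: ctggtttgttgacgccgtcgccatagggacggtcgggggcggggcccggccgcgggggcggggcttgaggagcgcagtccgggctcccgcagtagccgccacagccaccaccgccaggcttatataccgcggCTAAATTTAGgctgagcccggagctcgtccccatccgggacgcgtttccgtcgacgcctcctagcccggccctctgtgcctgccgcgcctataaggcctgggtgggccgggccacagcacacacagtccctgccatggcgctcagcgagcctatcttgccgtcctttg
Klf4: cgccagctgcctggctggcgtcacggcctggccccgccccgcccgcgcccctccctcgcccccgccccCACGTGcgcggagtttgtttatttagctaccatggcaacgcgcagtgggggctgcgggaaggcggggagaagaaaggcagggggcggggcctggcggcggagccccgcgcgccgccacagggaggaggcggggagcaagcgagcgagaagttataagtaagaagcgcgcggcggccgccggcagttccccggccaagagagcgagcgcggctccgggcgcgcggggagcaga

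The Klf2 window held 1 MEF2 site match, CTAAATTTAG, starting at -118 from the start site, and MEF2 site matches occurred in 3.26% of the 27025 mouse promoters of the same length. The Klf4 window held 1 E-box at -182, where 7.24% of all promoters held at least 1. GC boxes (GGGCGG, not in capitals) were matched in 7 of the 8 members that had a window, against 35.9% of all promoters. Both windows were rich in G and C, with 69.3% for Klf2 and 74.3% for Klf4 beside a median of 52.7%. A match is a description of letters and not evidence of a bound site.

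Klf4, a factor that in vessels acts in the endothelium and in dedifferentiating smooth muscle cells, was lower in most old aortae but did not pass the adjusted threshold. Young aortae held 1886, 1559, 2297, 1865 and 1448 normalized counts of Klf4 (replicates 1 to 5), and old aortae held 1270, 1717, 1133, 1330 and 1341. Old replicate 2 lay within the young range and the other 4 old aortae lay below every young one. The mean was 1811 ± 332 for young and 1358 ± 217 for old mice (SD, n = 5), a log2 fold change of -0.41 (SE 0.13, edgeR adjusted p = 0.0735). Over 20 alternatives this adjusted p ran from 0.0229 to 0.182. Klf4 was called by DESeq2 (adjusted p = 0.0229), by limma-voom with sample quality weights (log2 fold change -0.38, adjusted p = 0.0386), without old replicate 2 (log2 fold change -0.51, edgeR adjusted p = 0.0236) and without young replicate 5 (-0.48, edgeR adjusted p = 0.0428).

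Klf2, the flow-induced endothelial factor, varied so widely within each age that no difference could be resolved. Its normalized counts were 2140, 1141, 2169, 1580 and 1571 in young aortae and 1524, 1821, 649.6, 1265 and 1446 in old aortae. Young replicates 1 and 3 were the highest of all 10 and old replicate 3 was far the lowest, with the remaining values of both ages intermixed. The means were 1720 ± 434 and 1341 ± 435 (SD, n = 5), and the log2 fold change was -0.35 (SE 0.27, edgeR adjusted p = 0.447). It was -0.18 without old replicate 3.

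Most endothelial markers had lower levels in old aortae, and how many passed the test differed between tools. The 12 markers summed to between 29289 and 49128 normalized counts in a young aorta and between 16758 and 33803 in an old one, none was at 0, and 11 of 12 had a negative log2 fold change, with a median of -0.58. Tek, an angiopoietin receptor (log2 fold change -0.87, SE 0.23, edgeR adjusted p = 0.0381), and Ptprb, the vascular endothelial phosphatase (-0.75, SE 0.20, edgeR adjusted p = 0.0396), passed the test. At an unadjusted p below 0.05 stood 8 of the 12, where 26.7% of all genes did. DESeq2 and limma-voom each called 6 lower, where over all genes they called 1085 of 28011 and 741 of 14614 lower. By edgeR, 4.99% of all genes were called lower. The number called by edgeR was 8 without old replicate 2 and 0 without any single one of young replicates 1, 3 and 5 or old replicates 1, 3 and 5. The mean log2 CPM (counts scaled for library size) of the 12 markers was 6.27 ± 0.34 for young and 5.75 ± 0.39 for old mice (SD, n = 5), a difference of -0.52 (exact two-sided permutation, p = 0.0556). In bulk aorta fewer endothelial cells and less RNA per endothelial cell cannot be told apart. Relative to that mean, Klf4 differed between the ages by 0.12 on the log2 scale (exact permutation, p = 0.341) and Klf2 by 0.13 (exact permutation, p = 0.579), with the sign turned in both cases. The sign also turned for Klf6, the called member, at 0.09 (exact permutation, p = 0.738). Subtracting a mean that itself differed by -0.52 turns the sign of any gene with a smaller negative difference. The turned signs are therefore not a result about these members, and the part of endothelial content in their values was not tested.

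In the pathway that leads from flow to Klf2 and Klf4, Heg1 and Mef2c were called lower. Of 13 genes for the kinase cascade, the MEF2 factors, the cerebral cavernous malformation complex, the flow sensor Piezo1 and the class II deacetylases, 0 were called higher and 2 lower, where 11.5% of all genes were called in either direction, and the median log2 fold change was -0.04. Heg1, the transmembrane partner of that complex, fell from 8189 ± 832 to 5754 ± 681 normalized counts (SD, n = 5; log2 fold change -0.50, SE 0.09, edgeR adjusted p = 0.00401). Mef2c, a MEF2 factor, was called at -0.23 (SE 0.07, edgeR adjusted p = 0.0472), a call kept in 2 of 10 fits that each left out 1 aorta, with an adjusted p of up to 0.127. The kinases Map3k3 and Mapk7 had log2 fold changes of 0.01 and 0.03.

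Among genes that Klf2 and Klf4 are known to regulate in endothelium, Edn1 and Thbd were lower and Ccl2 higher in old aortae. They were the calls among 11 tested of 12 such genes, where 11.5% of all genes were called in either direction. The list holds both induced and repressed targets. The list gave 1 higher and 4 lower calls without old replicate 2, 2 higher and 3 lower calls with DESeq2, and 0 higher and 2 lower calls without young replicate 2. In these fits 10.45%, 8.3% and 8.31% of all genes were called in either direction. Edn1, the vasoconstrictor endothelin that Klf2 represses, fell from 523 ± 149 to 158 ± 33.6 normalized counts (SD, n = 5; log2 fold change -1.72, SE 0.21, edgeR adjusted p = 0.000445). Thbd, the anticoagulant thrombomodulin that both factors induce, fell by 0.34 (SE 0.08, edgeR adjusted p = 0.0135), and both calls held when any single aorta was left out. Ccl2, a monocyte chemokine, rose by 2.02 (SE 0.48, edgeR adjusted p = 0.0195) from only 16 ± 9.73 normalized counts, and its adjusted p was 0.0520 without young replicate 2. Nos3, the endothelial nitric oxide synthase, stood at -0.60 on the same scale (SE 0.22, edgeR adjusted p = 0.110).

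**Figure D2:**
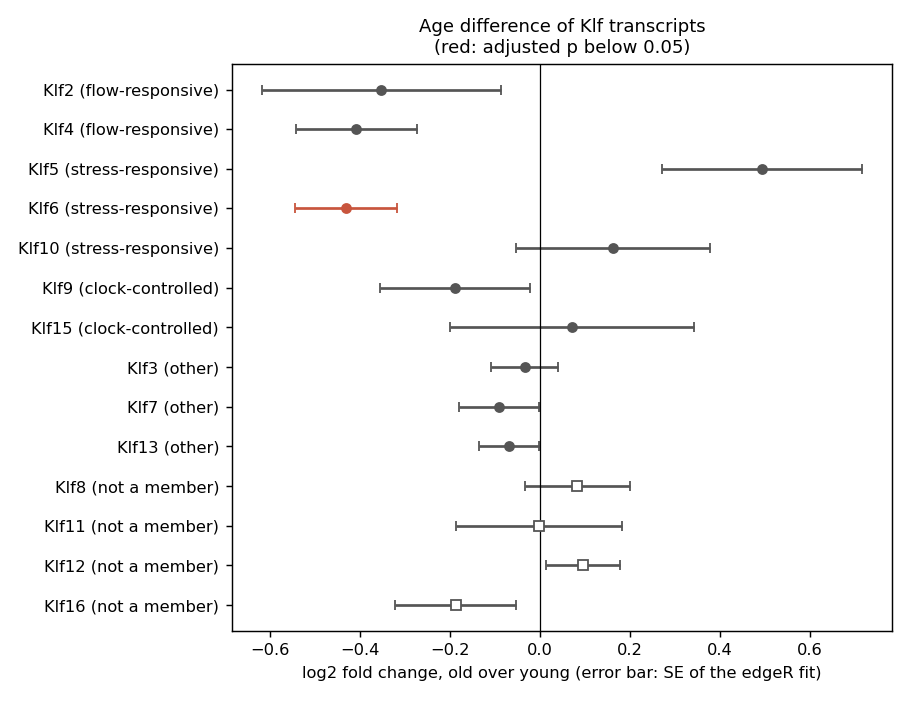
Log2 fold change, old over young, of the 10 members (filled circles) and of the 4 other tested Kruppel-like factor genes (open squares), with error bars for the SE of the edgeR fit and red for an adjusted p below 0.05. Klf6 at -0.43 is the only red point, Klf4 at -0.41 has a similar size, and Klf5 at 0.49 lies farthest to the right.

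Among the stress-responsive members Klf6 was lower in old aortae, and the other members of this class pointed the other way without passing the test. Klf6, an early-response factor expressed in many vascular cell types, lies on chromosome 13 (GRCm38, 5861482 to 5870394, plus strand). Its promoter window, shown because this is the called member, is chr13:5861239-5861538 (RefSeq, GRCm38.p6, plus strand), with capitals as above.
Klf6: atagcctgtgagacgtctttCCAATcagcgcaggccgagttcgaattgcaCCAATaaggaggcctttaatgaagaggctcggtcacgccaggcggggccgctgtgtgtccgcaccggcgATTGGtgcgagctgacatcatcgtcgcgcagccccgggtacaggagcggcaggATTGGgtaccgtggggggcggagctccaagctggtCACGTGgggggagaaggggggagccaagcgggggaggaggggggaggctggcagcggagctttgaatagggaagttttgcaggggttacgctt

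The Klf6 window held 4 CCAAT boxes (in either orientation, at -230, -200, -131 and -78) and 1 E-box at -43, with 63% G and C. A CCAAT box was found in 37.9% of all promoters and in 4 of the 8 members with a window. None of these 8 windows held a match to the cyclic AMP response element, the TATA box, the CArG box or the glucocorticoid response element, which were found in 1.88%, 14.2%, 1.57% and 0.0444% of all promoters.

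Young aortae held 5764, 5585, 6889, 7559 and 7727 normalized counts of Klf6, and old aortae held 5141, 5405, 3801, 5125 and 5255. Every old value lay below every young value, although only by a small margin between old replicate 2 and young replicate 2. The means were 6705 ± 993 and 4945 ± 650 (SD, n = 5), and Klf6 fell by 25.8% in the edgeR fit, a log2 fold change of -0.43 (SE 0.11, edgeR adjusted p = 0.0281). Lower calls made up 4.99% of all genes tested, and 4.55% of genes had all old values below all young ones. The adjusted p ran from 0.00380 (DESeq2) to 0.0743 over 20 alternatives. The call was lost without young replicate 3 (log2 fold change -0.42, edgeR adjusted p = 0.0566), 4 (-0.38, 0.0743) or 5 (-0.38, 0.0669), with a fold change close to that of all 10 aortae, and kept without old replicate 3. It was also lost with the replicate number as a block (-0.43, edgeR adjusted p = 0.0527) and without old replicates 2 and 3 together (-0.37, edgeR adjusted p = 0.0676). Relative to the mean of the endothelial markers, the difference of Klf6 between the ages was 0.09 on the log2 scale (exact permutation, p = 0.738). Within the age groups, however, Klf6 and that mean were correlated by only r = 0.19 (exact permutation, adjusted p = 0.718). This r was -0.28 among young and 0.63 among old aortae. Whether the lower Klf6 follows endothelial content was not tested.

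Klf5, which drives growth and remodelling of smooth muscle cells after injury, had low counts and was higher in some old aortae. Its normalized counts were 101, 65.4, 114, 83.0 and 122 in young aortae and 98.9, 87.2, 168, 181 and 143 in old aortae. Old replicates 3, 4 and 5 lay above every young aorta, and old replicates 1 and 2 lay among them. The log2 fold change was 0.49 (SE 0.22, edgeR adjusted p = 0.177), from 97.1 ± 23 to 136 ± 41.4 (SD, n = 5). Over 20 alternatives the adjusted p was between 0.0849 and 0.345.

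Klf10, an early gene of transforming growth factor signalling, did not differ beyond its spread. Its normalized counts were 486, 648, 621, 477 and 380 in young aortae and 373, 552, 881, 546 and 553 in old aortae. Old replicate 3 alone exceeded the young range. The means were 522 ± 111 and 581 ± 184 (SD, n = 5), giving a log2 fold change of 0.16 (SE 0.22, edgeR adjusted p = 0.690) that became -0.040 without old replicate 3.

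Among the immediate early genes, which respond to stress within minutes of a stimulus, Atf3 fell most. Of 20 tested, 1 rose and 5 fell, where 11.5% of all genes were called in either direction. The median log2 fold change was -0.24, and without old replicates 2 and 3 together 1 was called higher and 0 lower. DESeq2 called 2 higher and 7 lower, where it called 8.3% of all 28011 genes with a count in either direction. Of the 20, 6 had a positive log2 fold change, among them Egr2, a zinc finger factor (0.73, edgeR adjusted p = 0.0777). Atf3, a stress-induced repressor, fell by 2.28 (SE 0.39, edgeR adjusted p = 0.00596), from 2725 ± 1246 to 557 ± 194 normalized counts (SD, n = 5). Jund (-0.45, SE 0.09), Ier5 (-0.98, SE 0.21), Fosl2 (-0.71, SE 0.18) and Fosb (-1.16, SE 0.30) also fell, whereas Junb rose by 0.77 (SE 0.16, edgeR adjusted p = 0.00957). Of these 6 calls, 4 held when any single aorta was left out, while the edgeR adjusted p reached 0.0776 for Fosb and 0.0732 for Fosl2. Fos, the prototype of the class, ranged from 1118 to 3864 normalized counts among young and from 613 to 2824 among old mice.

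Neither clock-controlled member was called between the ages. Klf9, a repressor induced by glucocorticoid and thyroid hormone, lies on chromosome 19 (GRCm38, 23141226 to 23168134, plus strand), and Klf15, a regulator of amino acid and lipid use, on chromosome 6 (90462576 to 90475238, plus strand). Their windows are chr19:23140976-23141275 and chr6:90462326-90462625 (RefSeq, GRCm38.p6, both on the plus strand). They are shown because the E-box is the element that the clock proteins CLOCK and BMAL1 bind.
Klf9: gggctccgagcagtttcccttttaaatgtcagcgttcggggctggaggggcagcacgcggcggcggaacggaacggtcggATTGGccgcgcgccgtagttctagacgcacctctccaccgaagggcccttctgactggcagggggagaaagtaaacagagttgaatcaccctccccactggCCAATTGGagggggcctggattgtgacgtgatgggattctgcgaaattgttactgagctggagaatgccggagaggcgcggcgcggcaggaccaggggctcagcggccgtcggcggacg
Klf15: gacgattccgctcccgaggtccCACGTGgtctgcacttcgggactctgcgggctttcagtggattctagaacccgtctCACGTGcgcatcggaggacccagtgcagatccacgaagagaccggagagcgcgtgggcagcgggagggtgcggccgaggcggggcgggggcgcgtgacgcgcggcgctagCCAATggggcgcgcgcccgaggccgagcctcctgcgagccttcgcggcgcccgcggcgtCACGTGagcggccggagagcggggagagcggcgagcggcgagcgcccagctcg

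The Klf15 window held 3 E-boxes, at -228, -172 and -3, a number reached by 24 of the 27025 promoters (0.0888%), and 1 CCAAT box at -62. The Klf9 window held no E-box with these letters and had 3 CCAAT boxes, at -170, -69 and -66, the last pair overlapping on opposite strands. No window of a member held the glucocorticoid response element as spelled here, and no match says only that these letters are absent from the 300 bases.

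Klf9 had normalized counts of 3611, 6009, 4205, 5725 and 7439 in young aortae and 4486, 5200, 4812, 4360 and 4684 in old aortae. The old values fell inside the young range, which spread to both sides of them. The means were 5398 ± 1522 and 4708 ± 326 (SD, n = 5), giving a log2 fold change of -0.19 (SE 0.17, edgeR adjusted p = 0.519). Omitting young replicate 5 moved it to -0.050, and omitting young replicate 1 to -0.30. The coefficient of variation (CV, SD over mean) was 28.2% in young and 6.92% in old aortae, a difference in spread that was not tested.

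Klf15 showed a similar scatter in young aortae, with 794, 1366, 763, 1454 and 1821 normalized counts, and 1287, 1876, 1113, 938 and 1261 in old aortae. Young replicates 1 and 3 were lowest for both Klf15 and Klf9, young replicate 5 was the highest young aorta for both, and old replicate 2 was the highest old aorta for both. The means of Klf15 were 1240 ± 454 and 1295 ± 354 (SD, n = 5), and the log2 fold change of 0.07 (SE 0.27, edgeR adjusted p = 0.899) had no stable sign. It was -0.054 without young replicate 1, -0.061 without young replicate 3 and -0.10 without old replicate 2.

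The clock genes themselves differed widely between the same aortae. Of 19 tested, 8 rose and 5 fell, where 11.5% of all genes were called in either direction. Of these 13 calls, 11 held when any single aorta was left out. Arntl, which encodes BMAL1, fell from 706 ± 121 to 208 ± 104 normalized counts (SD, n = 5; log2 fold change -1.76, SE 0.32, edgeR adjusted p = 0.00717), and Nfil3, a repressor of D-box genes, fell by 2.74 (SE 0.36, edgeR adjusted p = 0.00173). Npas2 (-1.84, SE 0.29), Clock (-0.54, SE 0.09) and Rora (-0.56, SE 0.15) also fell. Dbp, a direct output of the E-box, rose from 1081 ± 382 to 3939 ± 1303 (1.87, SE 0.28, edgeR adjusted p = 0.00282), and Ciart (2.36, SE 0.39), Per3 (1.46, SE 0.13), Hlf (1.31, SE 0.16), Bhlhe41 (1.26, SE 0.18), Tef (1.03, SE 0.12), Nr1d2 (0.73, SE 0.18) and Cry2 (0.45, SE 0.10) rose with it. The call of Rora was kept in 2 of 10 such fits (edgeR adjusted p up to 0.0813) and that of Nr1d2 in 7 (up to 0.0648). Whether Klf9 and Klf15 differ from these genes in their response to age was not tested.

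Glucocorticoid-responsive genes gave 1 call among 14 tested, where 11.5% of all genes were called. Errfi1, a feedback inhibitor of epidermal growth factor receptors, fell from 4762 ± 1294 to 1840 ± 493 normalized counts (SD, n = 5; log2 fold change -1.36, SE 0.23, edgeR adjusted p = 0.00447). The list had a median of -0.26, with 12 negative values. Fkbp5, a classic glucocorticoid target that tempers its receptor, had 637, 1865, 879, 1784 and 2048 normalized counts in young aortae and 1882, 2757, 1249, 969 and 1266 in old aortae, with the same low aortae among the young as Klf9 and Klf15. Nr3c1, the receptor gene, stood at 4081 ± 432 and 3887 ± 286 (SD, n = 5; log2 fold change -0.06, SE 0.08, edgeR adjusted p = 0.669). Of 11 tested genes of branched-chain and other amino acid breakdown, the pathway that Klf15 controls in muscle and liver, 0 were called by edgeR or by DESeq2, and the median was -0.08. Of these 11, 1 had an unadjusted p below 0.05 in the edgeR test, where 26.7% of all genes did.

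The remaining members had small fold changes and were not called. Klf3, a repressor that works through the corepressor CtBP, averaged 2201 ± 238 normalized counts at the young age and 2138 ± 118 at the old (SD, n = 5; log2 fold change -0.03, SE 0.07, edgeR adjusted p = 0.820). Its sign was positive (0.022) without young replicate 2, and it was -0.082 without young replicate 1. Klf7, a close relative of Klf6, had 1877 ± 129 and 1753 ± 233 (-0.09, SE 0.09, edgeR adjusted p = 0.560), and the log2 fold change was -0.018 without old replicate 3. Klf13, a repressor of the same subgroup as Klf9, had 2845 ± 273 and 2699 ± 99.8 (-0.07, SE 0.07, edgeR adjusted p = 0.566), a log2 fold change that omitting young replicate 5 moved to -0.024 and omitting young replicate 3 to -0.12. Antisense transcripts overlap 39.3% of the exonic bases of Klf7 (Gm26649) and 3.59% of those of Klf3 (Gm20033), and the strand setting of the counting was not given. Gm26649 had 0 to 6 counts and Gm20033 had 5 to 21 counts per aorta.

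Genes for corepressors and partners of the family were tested as well. Of 14, 1 rose and 2 fell, where 11.5% of all genes were called in either direction. The median was -0.05, and 0 were called without old replicates 2 and 3 together. Wwp1, a ubiquitin ligase known to act on Klf2 and Klf5, rose by 0.24 (SE 0.06, edgeR adjusted p = 0.0130), a call that held without any single aorta. Ctbp1, the CtBP corepressor, fell by 0.19 (SE 0.05, edgeR adjusted p = 0.0217), not called without young replicate 4 or old replicate 5 (edgeR adjusted p up to 0.0620). Hdac2, a histone deacetylase, fell by 0.23 (SE 0.06, edgeR adjusted p = 0.0216), not called without young replicate 3 (edgeR adjusted p = 0.050). Of the other Kruppel-like factor genes Klf8, Klf11, Klf12 and Klf16 were tested and not called, with log2 fold changes of 0.08, -0.002, 0.10 and -0.19 and 0 unadjusted p-values below 0.05, and DESeq2 called 0 as well. Over all genes 26.7% had such an unadjusted p, and DESeq2 called 8.3%. Klf1 (9 reads over the young and 5 over the old aortae) and Klf14 (2 and 0) were too low to test, and Klf17 had no read.

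Single members of different classes were contrasted through ratios of read counts within a library, which do not depend on scaling. Klf6 was the stress-responsive member used, while Klf5 and Klf10, with positive log2 fold changes (0.49 and 0.16), entered no ratio. The ratios of Klf4 and of Klf6 share Klf9, so the 3 ratios are not independent and do not contrast whole classes. The log2 ratio of Klf4 to Klf9 was -1.55 ± 0.64 for young and -1.80 ± 0.18 for old mice (SD, n = 5), a difference of -0.26 (exact two-sided permutation, p = 0.405). That of Klf2 to Klf15 was 0.52 ± 0.88 and 0.01 ± 0.47, a difference of -0.51 (exact permutation, p = 0.302). That of Klf6 to Klf9 was 0.35 ± 0.37 and 0.06 ± 0.23, a difference of -0.29 (exact permutation, p = 0.175). After adjustment over the 3 ratios every p was 0.405, where 5 against 5 aortae can reach 0.0079 before adjustment. None of the 3 ratios thus differed between the ages beyond its spread, although all 3 lay lower in old aortae, and the ratio of Klf2 to Klf15 in young aortae split into 1.43 and 1.51 in replicates 1 and 3 against -0.26 to 0.12 in the other 3.

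**Figure D3:**
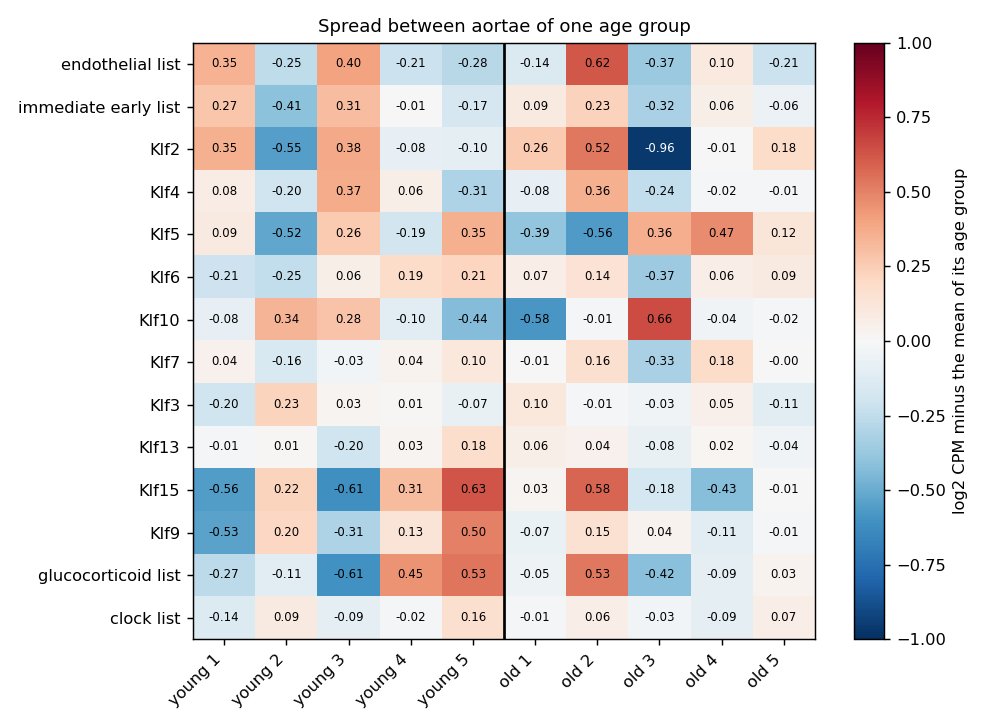
Log2 CPM of each member, and mean over 4 gene lists, minus the mean of the same age group (colour and printed value), for 10 aortae with the young to the left of the black line. Klf2 and the endothelial and immediate early lists are high in young replicates 1 and 3, where Klf9 and Klf15 are low, whereas in old replicate 2 the endothelial list, Klf9 and Klf15 are all at their highest among old aortae, and Klf2 reaches -0.96 in old replicate 3.

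Several members varied widely between mice of one age. The CV of Klf2 was 25.2% in young and 32.5% in old aortae, that of Klf10 was 21.2% and 31.7%, that of Klf5 was 23.7% and 30.5%, and that of Klf15 was 36.6% and 27.3%. The median over all genes tested was 10.8% in young and 10.9% in old aortae, and 6 of the 10 members exceeded it in both groups. Klf13 (9.59% and 3.70%) was below it in both.

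Deviations from the age group mean were then compared between members over the 10 aortae, a comparison chosen after the data were seen. Of 45 pairs, 6 had an unadjusted exact permutation p below 0.05 by Pearson's r (14400 within-group reorderings), and 0 after adjustment over the 45. Klf9 and Klf15 gave the closest pair, with r = 0.89 (exact permutation, p = 0.00278, adjusted p = 0.125), Spearman's rho = 0.70 (p = 0.0522, adjusted p = 0.470), and r = 0.88 without young replicates 1 and 5. Klf2 and Klf4 gave r = 0.74 (exact permutation, p = 0.0267, adjusted p = 0.241), rho = 0.80 (p = 0.0192, adjusted p = 0.431), and r = 0.75 without young replicate 2 and old replicate 3. The r of 0.78 between Klf6 and Klf7 rested on those same 2 aortae, and was 0.20 without them. So did the r of 0.76 between Klf2 and Klf7 (exact permutation, p = 0.0422, adjusted p = 0.316), which was -0.17 without them. The remaining pairs crossed the classes. Klf10 and Klf13 deviated in opposite directions (r = -0.68, exact permutation, p = 0.0127, adjusted p = 0.241; rho = -0.70, p = 0.0522, adjusted p = 0.470), with r = -0.76 without old replicates 1 and 3. Klf13 and Klf15 gave r = 0.73 (exact permutation, p = 0.0253, adjusted p = 0.241; rho = 0.80, p = 0.0192, adjusted p = 0.431), and 0.42 without young replicates 3 and 5.

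Against the mean deviation of 4 gene lists, 7 of 40 relations had an adjusted exact permutation p below 0.05 by Pearson's r, and 0 of 40 by Spearman's rho. The points share library, depth and tissue makeup. Klf4 followed the endothelial markers (r = 0.88, p = 0.000417, adjusted p = 0.0125; rho = 0.85, p = 0.00931, adjusted p = 0.124), with r = 0.67 without young replicate 3 and old replicate 2. Klf2 followed the immediate early genes (r = 0.89, p = 0.000625, adjusted p = 0.0125; rho = 0.95, p = 0.00125, adjusted p = 0.050), with r = 0.83 without young replicate 2 and old replicate 3. Klf2 and the endothelial markers gave r = 0.75 (exact permutation, p = 0.0371, adjusted p = 0.185; rho = 0.80, p = 0.0192, adjusted p = 0.149), and 0.64 without young replicate 3 and old replicate 2.

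The clock-controlled members were correlated with other lists. Klf15 followed the glucocorticoid-responsive genes (r = 0.88, exact permutation, p = 0.00576, adjusted p = 0.0461; rho = 0.90, p = 0.00431, adjusted p = 0.0861), with r = 0.75 without young replicate 5 and old replicate 2. Klf9 was correlated with the mean of the clock list (r = 0.90, exact permutation, p = 0.00396, adjusted p = 0.0461; rho = 0.75, p = 0.0336, adjusted p = 0.149), with r = 0.75 without young replicates 1 and 5. That mean is taken over clock genes of opposite phase and spanned only -0.14 to 0.16 on the log2 scale. Arntl itself was highest among young aortae in replicate 1 and lowest in replicate 5, the reverse of Klf9. The other relations below the threshold by r were Klf4 with the immediate early genes (0.83), Klf15 with the clock genes (0.87) and Klf13 with the glucocorticoid-responsive genes (0.81). Klf6 passed with none of the 4 lists, its highest r being 0.66 with the glucocorticoid-responsive genes (exact permutation, adjusted p = 0.222).

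**Figure D4:**
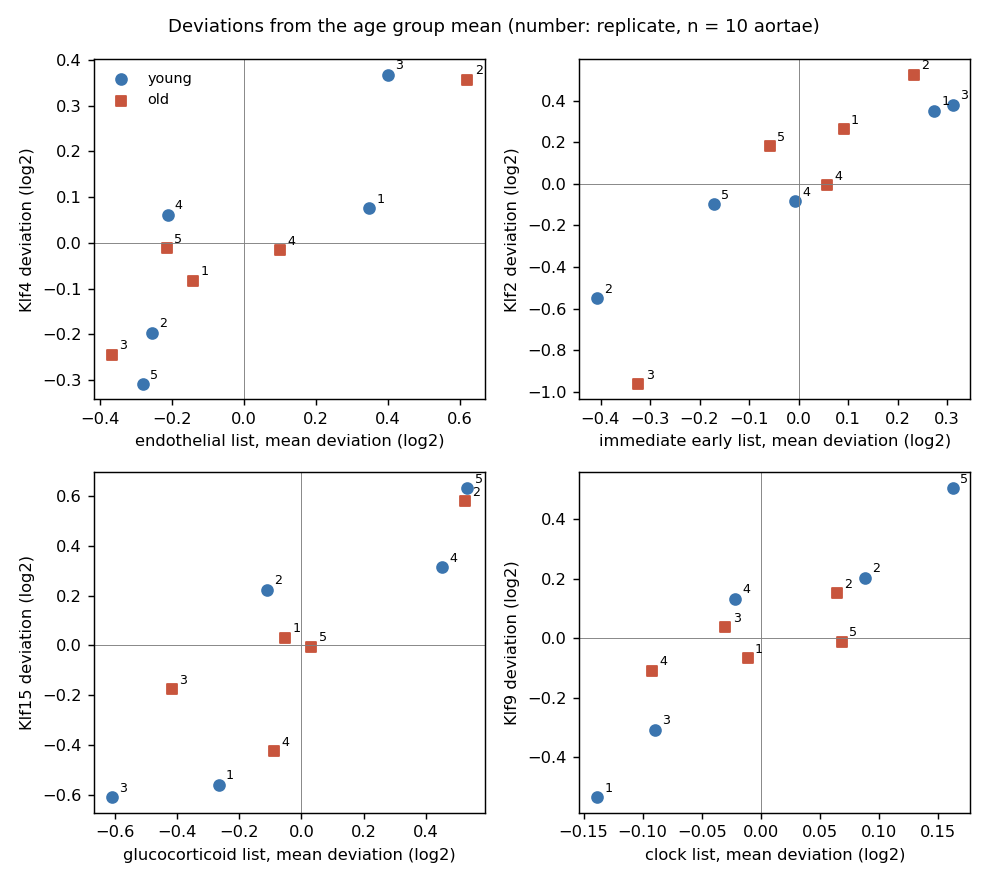
Deviation of a member from its age group mean (log2 CPM, vertical) against the mean deviation of a gene list (horizontal) in 10 aortae, with circles for young, squares for old and the replicate number beside each point. Klf4 is plotted on the endothelial list (r = 0.88), Klf2 on the immediate early list (0.89), Klf15 on the glucocorticoid list (0.88) and Klf9 on the clock list (0.90).

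Among all tested genes, those whose deviations were most like a member's are given as a description, since the highest of many correlations over 10 aortae is large by selection. For Klf2 it was Ccn1, a matrix protein of mechanically stressed cells (r = 0.97), which ranged from 9037 to 29843 normalized counts among young and from 2956 to 11591 among old mice. For Klf6 it was Sgk1, a kinase induced by serum and glucocorticoids (r = 0.96), with 1584 to 2887 normalized counts among young and 1042 to 2014 among old mice. For Klf4 they were Sptbn5 (0.99), She (0.97) and Mysm1 (0.96), for Klf15 Taf8 (0.98), Il17b (0.98) and Sun2 (0.96), for Klf9 2010300C02Rik (0.96), Ado (0.95) and Mxd4 (0.95), and for Klf5 Ube2e2 (0.98), Pdgfra (0.97) and Kctd12 (0.96).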

How the data were processed

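Poly(A) libraries from 10 mouse aortae, 1 per mouse, were sequenced. Per the submitters' processing notes and the paper's methods, the authors trimmed reads with fastp 0.20.0, aligned them to GRCm38 with STAR 2.7.0f and counted them per gene with featureCounts (Subread 1.6.4) on the GENCODE M22 annotation. The strand setting and the treatment of multi-mapping reads were not given in the sources used here. The deposited values are the authors' raw read counts per gene symbol, as whole numbers without normalization. The authors tested them with DESeq2, whose results were not used.

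Here groups and replicates came from the sample titles. Genes were filtered with filterByExpr (minimum count 10) and tested with the quasi-likelihood F test of edgeR 4.0.16 (robust, TMM scaling, no covariates, R 4.3.3) over all 10 aortae, with Benjamini-Hochberg adjustment over 14614 genes and calls at an adjusted p below 0.05. Normalized counts are counts over the size factors of DESeq2 1.42.0. Log2 CPM used a prior count of 2, and ratios a pseudocount of 0.5. Positions and exon lengths came from GENCODE M21 (GRCm38), since M22 was not used here. Promoter windows came from RefSeq (GRCm38.p6), and 8 of the 10 members matched. All members are named, with every called gene of the fixed lists except the macrophage markers, and some uncalled ones. Of the 3 genes with the most similar deviations, all are named for Klf4, Klf5, Klf9 and Klf15. For Klf2 and Klf6 only the first is named, and for the other members none. Members, lists and tests were chosen with earlier results of these data known. The relations between deviations and the values relative to endothelial markers were chosen after the data were seen. So were the uncalled genes that are named beside a list (Nos3, Map3k3, Mapk7, Egr2, Fos, Fkbp5 and Nr3c1).

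Alternatives were DESeq2, limma 3.58.1 (voom, with and without quality weights), 3 other scalings, 2 other low-count filters, the replicate number as a block, a threshold of 0.01 and omission of each aorta. On simulated counts with 200 genes changed by a log2 fold of 1 between old and young, edgeR found 160 of these and made 8 false calls (14500 tested). DESeq2 found 171 and made 34 false calls (14614 tested), and limma-voom found 159 and made 9 (14500 tested). The largest log2 fold change of a member was 0.49 (Klf5), so the simulation does not show how often changes of the members' size are found. For the 20 pairs of libraries within a group, chi-square divided by degrees of freedom was 8.06 to 58.8, far above the 1 of sampling noise, so that no library was counted as a duplicate. Counting error is part of each SE.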

Additional observations from a re-analysis of the deposited data

Results flagged for a closer look

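Klf6 in old replicate 3 stood apart from the other old aortae. It had 3801 normalized counts, whereas the other 4 old aortae had between 5125 and 5405, and the gap to the nearest of them was 0.826 of the range of the group, above Dixon's critical value of 0.71 for 5 samples. Of 26 groups of 5 values examined, this was the only one set apart, and chance sets apart about 1 in 20. Without this aorta the log2 fold change of Klf6 was -0.35 (SE 0.10, edgeR adjusted p = 0.0404), so that the lower level in old aortae did not rest on it. The same aorta had the lowest Klf2, Klf4 and Klf7 and the highest Klf10 of all 10, with a mitochondrial share of 5.19%.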

How the results depend on the processing

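The count of members called was 1, 2 with DESeq2 or with limma-voom and sample quality weights (Klf4 and Klf6), 0 at a threshold of 0.01, 0 without old replicates 2 and 3 together (an alternative chosen after the data were seen), and 0 to 2 when single aortae were left out. Of genes in the pathway lists, 28 were called, 16 at a threshold of 0.01, 17 without old replicates 2 and 3 together (of which 1 was an immediate early gene, against 6), and 22 to 32 when single aortae were left out. The sample labels do not say that the replicate numbers pair the samples. Same-numbered young and old aortae had deviations correlated by -0.30 to 0.13. Replicates 3 and 5 correlated best with their own number in both directions, and replicates 1, 2 and 4 in neither. Whether same-numbered aortae were processed together was not tested. With the replicate block 0 members (Klf6, edgeR adjusted p = 0.0527) and 24 list genes were called, and the ratios of Klf4 to Klf9, Klf2 to Klf15 and Klf6 to Klf9 gave exact sign-flip p-values of 0.50, 0.50 and 0.313. Log2 fold changes that changed sign were those of Klf10 (-0.088 without old replicates 2 and 3, and -0.040 to 0.28 when single aortae were left out), Klf15 (-0.079 with quality weights, -0.089 without old replicates 2 and 3, and -0.10 to 0.25 without single aortae) and Klf3 (-0.082 to 0.022 without single aortae), none of them called in any fit. Without old replicates 2 and 3 Klf6 had -0.37 (edgeR adjusted p = 0.0676). The 3 ratios kept their sign under all 12 alternatives each, at -0.46 to -0.09, -0.70 to -0.26 and -0.40 to -0.18 when single aortae were left out. The other scalings moved the median log2 fold change of all genes by at most 0.03, with 1076 higher and 616 lower genes for upper-quartile factors and 1034 and 615 for library size alone, against 947 and 729. Over all genes 1676 were called, 2325 with DESeq2 (8.3% of 28011), 2592 with quality weights (17.7% of 14614), 954 without old replicates 2 and 3, and 1132 to 2367 when single aortae were left out. The cause of these shifts was not tested. Depth limits Klf5 most, at 65 to 188 reads per aorta.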

Other observations

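Of the Sp factors, relatives of the family with the same kind of zinc fingers, Sp1, Sp2, Sp3, Sp4 and Sp7 were tested, with 0 called by edgeR or DESeq2 and 0 unadjusted p-values below 0.05. Over all genes edgeR called 11.5% and DESeq2 8.3%, and 26.7% had such an unadjusted p. Sp1, the general GC-box activator, averaged 2746 ± 184 normalized counts at the young age and 2749 ± 266 at the old (SD, n = 5; log2 fold change 0.01, SE 0.07, edgeR adjusted p = 0.951), and Sp3 had 1597 ± 103 and 1641 ± 22.2 (0.05, SE 0.05, edgeR adjusted p = 0.635). Sp2 and Sp4 had log2 fold changes of -0.03 and 0.08. Sp7, an osteoblast factor, averaged 8.68 ± 6.12 at the young age and 13.2 ± 1.64 at the old (0.62, SE 0.39, edgeR adjusted p = 0.344). Sp6 had 31 reads over the young and 65 over the old aortae and Sp9 had 1 and 5, too few to test, and Sp5 and Sp8 had no read. For Sp6, old replicates 1, 2 and 3 lay above every young aorta and the other old aortae did not.

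Marker lists of other cell types in the vessel wall gave these values beside the family, where edgeR called 11.5% of all genes in either direction. DESeq2 called 8.3% of all genes, and 26.7% had an unadjusted p below 0.05 in the edgeR test. Of 10 macrophage markers 6 were higher in old aortae, with a median log2 fold change of 0.67 and sums of 6811 to 8853 normalized counts among young and 9254 to 16925 among old mice, and 2 of these calls held when any single aorta was left out. Their number was 2 without any single one of young replicates 2, 4 and 5, and 3 without young replicate 3 or old replicate 2. Of 10 adipocyte markers 0 were called by edgeR, 5 had an unadjusted p below 0.05 and 2 were called by DESeq2, with a median of -0.97 and sums of 12678 to 40816 and 6821 to 17284. None of these 20 markers was at 0. Lymphocyte markers were scarce, with sums of 22.1 to 127 and 67.0 to 477, and of 5 tested among 10, Cd3g (log2 fold change 2.78, SE 0.62, edgeR adjusted p = 0.0121) and Cd4 (1.95, SE 0.34, edgeR adjusted p = 0.00269) rose, with a median of 1.64 and both calls held without any single aorta. Among smooth muscle markers 6 of 10 had a negative log2 fold change (median -0.11), and Smtn rose (0.29, 1 of 10 called by edgeR, with 1 higher and 2 lower by DESeq2). By edgeR, among fibroblast markers Lum rose (0.58) and Pi16 fell (-0.58, 2 of 10 called), among Schwann cell markers Prx rose (0.38, 1 of 7 called), and among striated muscle markers, of which 5 of 6 were negative (median -0.98), Actc1 fell (-2.02) and Tnnt2, the exception, rose (1.74, 2 of 6 called). The calls of Smtn and Prx were lost in 3 and 5 of the 10 fits that each left out 1 aorta. Without young replicate 1, smooth muscle markers gave 1 higher and 4 lower calls and Schwann cell markers 4 higher calls, and without old replicate 1 fibroblast markers gave 3 higher and 1 lower. Of 5 erythroid markers 0 were called by edgeR or DESeq2 and 0 had an unadjusted p below 0.05. The part of these cell types in the values of the Kruppel-like factors was not tested.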
